A study of Mus musculus with 9 samples.

Results

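The 10 genes described here encode the troponin and tropomyosin isoforms of striated muscle: the troponin I genes Tnni1, Tnni2 and Tnni3, the troponin T genes Tnnt1, Tnnt2 and Tnnt3, the troponin C genes Tnnc1 and Tnnc2, and the tropomyosin genes Tpm1 and Tpm2. They were taken as a gene family by symbol from the 38293 genes of the count table, and 9 of the 10 passed the filter on low counts that left 15318 genes for testing. Messenger RNA of whole ventricles at postnatal day 7 (P7) was sequenced, from total RNA, in 5 control and 4 Arid1a cKO libraries. Control mice were Arid1a f/f littermates that carry the floxed gene without Cre, and cKO mice were aMHC-Cre;Arid1a f/f, in which Cre is driven by the αMHC promoter of cardiomyocytes, so both groups carry the floxed alleles and other cell types of the ventricle keep an intact gene. The mouse lines had a C57B/6 J background, and every library labelled as a control was used, 1 more than the methods name. The paper's figure legend for these data also counts 5 control and 4 cKO hearts. The comparison asked how loss of Arid1a, which encodes a component of SWI/SNF chromatin remodellers, altered expression of these sarcomeric genes in the neonatal heart.

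Troponin is the calcium switch of striated muscle. Troponin C binds calcium, troponin I holds contraction off when calcium is low, and troponin T anchors the complex to tropomyosin, a coiled coil that lies along the actin filament and covers the myosin binding sites at rest. Troponin I and T each have a cardiac, a slow skeletal and a fast skeletal gene, and the heart is known to replace slow skeletal troponin I (Tnni1), its fetal isoform, with cardiac troponin I (Tnni3) around birth. Tnnc1 encodes the single troponin C of heart and slow muscle, Tnnt2 the cardiac troponin T, and Tpm1 the main tropomyosin of the heart.

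Tnnt1 and Tnni1 showed the clearest changes, and the sequences before the starts of these genes are shown beside those of their cardiac paralogs Tnnt2 and Tnni3. The stretches come from RefSeq on GRCm38.p6, are written 5′ to 3′ on the gene's own strand and are those parts of the 250 bases before the start that hold no annotated exon. Capitals mark CATTCC, the core bound by TEAD factors, and TTATCT, the GATA-type motif AGATAA read on the other strand.

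Tnnt1, chr7:4516005-4516225, minus strand: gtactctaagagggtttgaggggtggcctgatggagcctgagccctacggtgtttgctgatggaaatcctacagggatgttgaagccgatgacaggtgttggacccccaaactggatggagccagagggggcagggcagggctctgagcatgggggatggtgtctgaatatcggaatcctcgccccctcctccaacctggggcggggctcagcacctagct

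Tnnt2, chr1:135836084-135836333, plus strand: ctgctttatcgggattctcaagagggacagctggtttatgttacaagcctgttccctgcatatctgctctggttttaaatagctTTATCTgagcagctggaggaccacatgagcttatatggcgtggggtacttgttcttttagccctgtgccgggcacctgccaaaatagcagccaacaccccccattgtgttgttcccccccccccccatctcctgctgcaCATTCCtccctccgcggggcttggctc

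Tnni1, chr1:135799171-135799401, plus strand: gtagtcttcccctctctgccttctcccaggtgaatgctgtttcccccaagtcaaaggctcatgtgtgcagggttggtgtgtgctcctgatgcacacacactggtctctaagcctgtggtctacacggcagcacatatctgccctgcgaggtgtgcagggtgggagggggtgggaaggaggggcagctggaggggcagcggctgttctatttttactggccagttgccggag

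Tnni3, chr7:4522529-4522694, minus strand: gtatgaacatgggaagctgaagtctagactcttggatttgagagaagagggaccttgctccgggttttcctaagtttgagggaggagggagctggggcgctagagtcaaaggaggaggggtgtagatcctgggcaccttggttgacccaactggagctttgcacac

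Promoters were found in the RefSeq table for 8 of the 10 genes, not for Tnni2 and Tnnt3. Both strands of the 250 bases before the start were searched for 6 motifs. The window of the Tnnt2 start shown held CATTCC beginning at −27 and AGATAA at −166, while that of its other start held none of the 6 motifs. Tpm1 held CATTCC at −56, and Tnnc1 held CATTCC at −58. Of all 32851 promoter windows, 12.6% held CATTCC and 9.99% held AGATAA. Tnnt1 held TATAAA beginning at −30, the last base printed, a motif present in 12.4% of windows. None of the windows of Tnni1, Tnni3, Tnnc2 and Tpm2 held any of these letters, and no member held the ERR half-site AAGGTCA (4.08% of windows), the MEF2 consensus (1.69%) or the SRF CArG box (1.47%). No motif was shared by the members called below, and a match or its absence is a description of these letters only.

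Total counts were 31011055 to 40073801 per library, and 19418 to 20317 genes had at least 1 count. Arid1a, the targeted gene, was measured at 142.4, 128, 133, 147 and 148 CPM (counts per 1e6 of the scaled library total) in control 1 to 5 and at 108, 113, 100.3 and 104 CPM in cKO 1 to 4. The groups did not overlap, and the log2 fold change was −0.39 (SE 0.06, edgeR, Benjamini-Hochberg adjusted p = 0.0013), which is under the 1.5-fold threshold. The libraries fall into sets by the ribosomal protein pseudogene Rps3a3, at 0.345 to 0.521 CPM in control 1 and 2 and cKO 1 to 3 and at 99.7 to 112 CPM in control 3 to 5 and cKO 4, and what this split stands for is not given in the sources used here. In the Rps3a3-low libraries alone, 2 control and 3 cKO, Arid1a was at −0.33 and did not pass (edgeR adjusted p = 0.0822). The labels number the libraries without naming animals, so p-values measure the spread between these libraries. Because whole ventricle was sequenced, fewer cells of a type and less RNA per cell cannot be told apart.

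A gene was called when the adjusted p from edgeR's quasi-likelihood test was under 0.05 and the fold change over 1.5. Tnnt1 and Tpm2 were called higher and Tnni1 lower in cKO ventricles, 3 of the 9 members tested, where 6.72% of all tested genes were called (4.01% higher and 2.72% lower). The median log2 fold change was 0.08 over the 9 members and 0.01 over all genes. CPM of the groups did not overlap for Tnnt1, Tnni1 and Tnnt3, as was found for 16.7% of all genes.

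**Figure D1:**
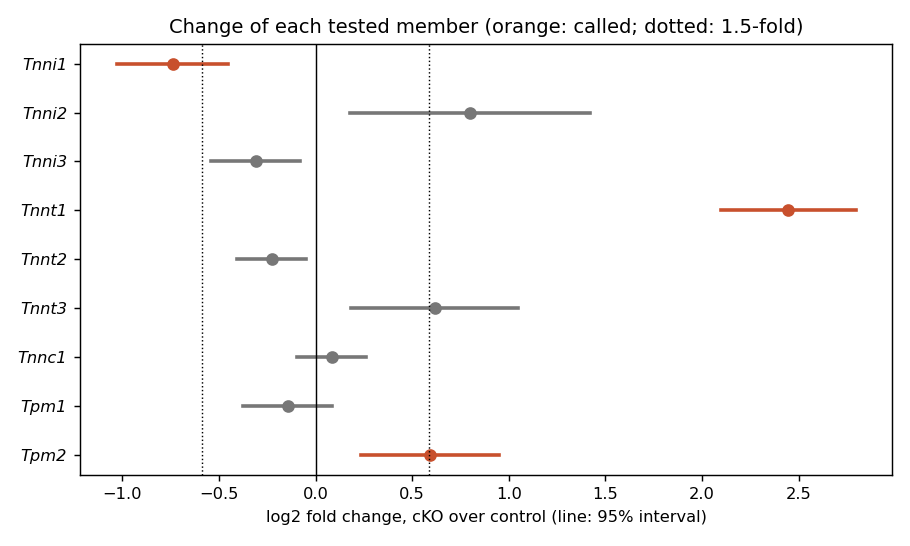
Log2 fold change of each tested gene, cKO over control, on the horizontal axis, with lines for the 95% interval and dotted lines at a fold change of 1.5. Tnnt1 at 2.45 stands far to the right, Tnni1 at −0.74 is the only member called lower, and the intervals of Tnnc1 and Tpm1 cross 0.

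Tnnt1, which encodes slow skeletal troponin T, rose most. Its levels were 28.4, 28.1, 21.7, 22.0 and 20.95 CPM in control 1 to 5 and 141, 173, 112 and 102 CPM in cKO 1 to 4. The lowest cKO library was therefore more than 3 times the highest control library, and the cKO libraries also differed more among themselves. Means were 24.2 ± 3.69 CPM (SD, n = 5) in controls and 132 ± 31.5 CPM (SD, n = 4) in cKO. This is a log2 difference of 2.45 (SE 0.16, 95% interval 2.10 to 2.79) or 5.45-fold, with an edgeR adjusted p of 3.03e-06. By size it ranked 52 among the 614 genes called higher. Between 3879 and 6507 counts lay behind each cKO value, so counting error was small beside the spread between libraries.

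Cardiac troponin T, encoded by Tnnt2, stood at 6363, 6753, 6146, 5334 and 5399 CPM in control 1 to 5 and at 5165, 5514, 5118 and 4721 CPM in cKO 1 to 4. The highest cKO library lay among the controls. Its log2 fold change of −0.23 (SE 0.08, 95% interval −0.41 to −0.05) missed the threshold (edgeR adjusted p = 0.0861). Tnnt3, the fast skeletal troponin T gene, was low, with 22 to 36 counts in control and 46 to 51 in cKO libraries, or 0.865 ± 0.128 CPM (SD, n = 5) against 1.33 ± 0.113 CPM (SD, n = 4). These groups did not overlap, yet the log2 fold change of 0.62 (SE 0.20, edgeR adjusted p = 0.0529) narrowly missed the threshold. The annotated Prr33 gene overlaps Tnnt3 on the opposite strand, and since the strand setting of the counting is not given, the few reads of Tnnt3 could belong to either gene.

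Tnni1, the slow skeletal and fetal troponin I gene, fell. It was measured at 889, 812, 787, 597 and 701 CPM in control 1 to 5 and at 409, 574, 434 and 398 CPM in cKO 1 to 4. Groups did not overlap, although cKO 2 came close to control 4. Means were 757 ± 112 CPM (SD, n = 5) and 454 ± 81.3 CPM (SD, n = 4), which differ by −0.74 on the log2 scale (SE 0.13, 95% interval −1.03 to −0.45, edgeR adjusted p = 0.00295). Slow skeletal troponin I thus moved in the opposite direction to slow skeletal troponin T in the same libraries.

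Tnni3, which encodes the cardiac troponin I of the mature heart, was measured at 2307, 2296, 1989.6, 1826 and 1792 CPM in control 1 to 5 and at 1612, 1958, 1598 and 1419 CPM in cKO 1 to 4. Only cKO 2 reached into the control range. The log2 fold change was −0.31 (SE 0.11, 95% interval −0.54 to −0.08) and did not pass (edgeR adjusted p = 0.0689). With the Rps3a3 library set as a term the change was −0.41 and passed (edgeR adjusted p = 0.00225), as did the change of Tnnt2 at −0.29 (edgeR adjusted p = 0.00701), both under the 1.5-fold threshold. Tnni2, the fast skeletal troponin I gene, had only 25 to 89 counts in control and 82 to 151 in cKO libraries. It lay at 1.82 ± 0.705 CPM (SD, n = 5) against 3.18 ± 0.621 CPM (SD, n = 4), with control 1 above cKO 1. The log2 fold change of 0.80 had a wide error (SE 0.28, 95% interval 0.18 to 1.42, edgeR adjusted p = 0.079).

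Troponin C transcripts came almost wholly from Tnnc1. This gene was measured at 2277, 2276, 2019, 1968 and 1886 CPM in control 1 to 5 and at 2002, 2485, 2122 and 2231 CPM in cKO 1 to 4. The groups overlapped in part, with cKO 2 above every control and control 4 and 5 below every cKO library, and the 95% interval of the log2 fold change of 0.08 ran from −0.09 to 0.26 (edgeR adjusted p = 0.535). The fast skeletal gene Tnnc2 was at or near 0, with 0, 4, 3, 4 and 11 counts in control 1 to 5 and 1, 1, 1 and 5 in cKO 1 to 4. It did not pass the filter and was not tested, and the 0 counts of control 1 allow a level of up to 0.0903 CPM by counting error alone.

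Tpm2, which encodes β-tropomyosin, lay at 61.9, 65.1, 50.8, 64.1 and 48.9 CPM in control 1 to 5 and at 60.7, 114, 94.5 and 81.4 CPM in cKO 1 to 4. In cKO 1 it was within the control range, while the other 3 cKO libraries were above every control. Means were 58.2 ± 7.69 CPM (SD, n = 5) and 87.7 ± 22.4 CPM (SD, n = 4), with a log2 fold change of 0.59 (SE 0.16, 95% interval 0.24 to 0.95, edgeR adjusted p = 0.0295) that was just past the fold threshold. The call was lost when control 3, control 5, cKO 2, cKO 3 or cKO 4 was left out, with edgeR adjusted p of 0.0681, 0.0722, 0.0756, 0.0761 and 0.0512, and with the Rps3a3 library set as a term (log2 fold change 0.53, edgeR adjusted p = 0.0619). Tpm1, the main cardiac tropomyosin gene, was measured at 6662, 7408, 5503, 5919 and 6569 CPM in control 1 to 5 and at 4668, 6426, 5983 and 6148 CPM in cKO 1 to 4. Apart from the low value of cKO 1, the cKO libraries lay within the control range, and the log2 fold change was −0.14 (95% interval −0.37 to 0.09, edgeR adjusted p = 0.400).

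**Figure D2:**
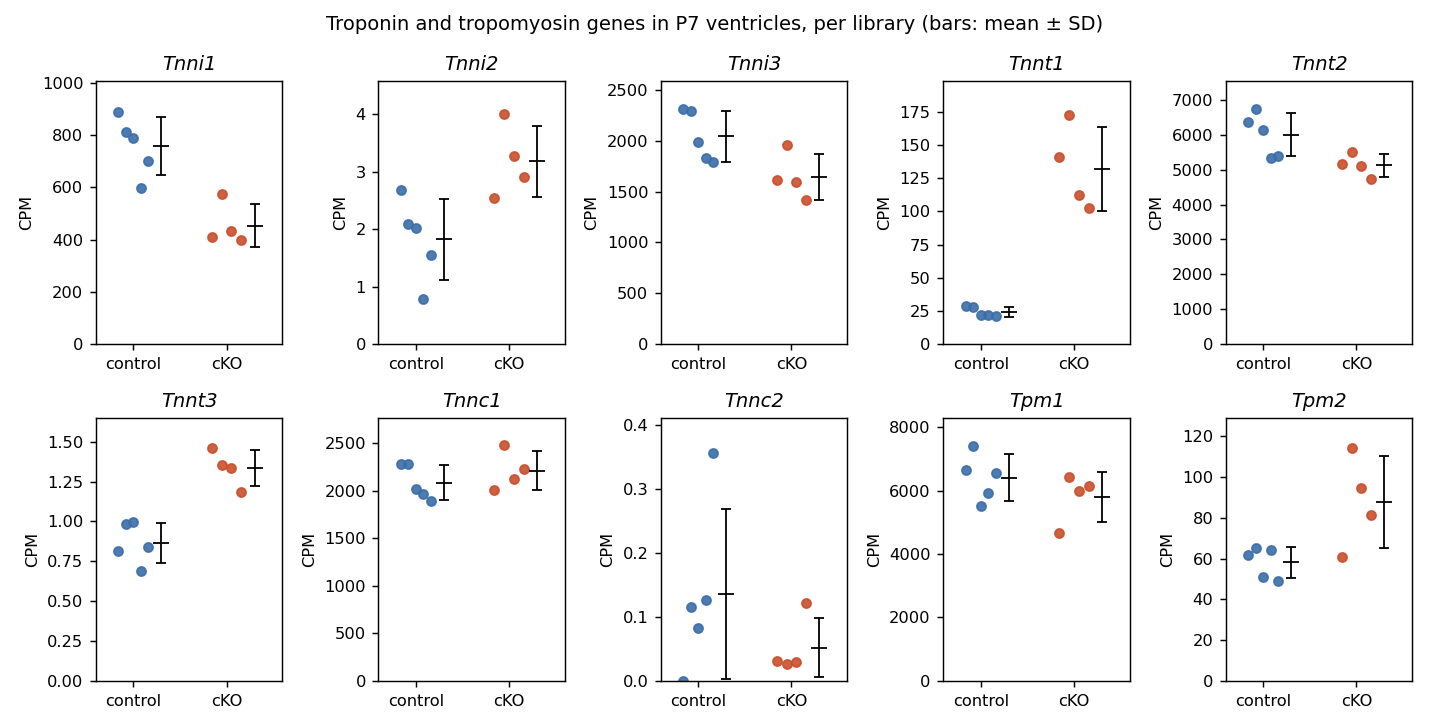
Level of each gene in CPM on the vertical axis, each axis starting at 0, with 1 point per library in replicate order and bars for the mean and SD of 5 control and 4 cKO libraries. Tnnt1 and Tnni1 separate the groups in opposite directions, while the points of Tnnc1 and Tpm1 intermingle.

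Single libraries tended to be high or low for several members at once. Within the cKO group, cKO 2 was the highest for every tested member except Tnnt3, and cKO 4 was the lowest for Tnni1, Tnni3, Tnnt1, Tnnt2 and Tnnt3. Among controls, control 1 and 2, which belong to the Rps3a3-low set, were the highest for Tnni1, Tnni3, Tnnt1, Tnnt2 and Tnnc1. Within the Rps3a3-low and the Rps3a3-high libraries the mean difference of log2(CPM + 0.5) was 2.29 and 2.22 for Tnnt1, −0.86 and −0.79 for Tnni1, −0.42 and −0.40 for Tnni3, and −0.32 and −0.25 for Tnnt2. For Tnnt3 it was 0.43 and 0.33. None of these genes overlapped in either set, though the second set holds only 1 cKO library. How many of all tested genes separate in such small sets was not counted. The difference for Tpm2 was 0.45 with overlap and 0.58 without. The summed level of the 10 members was 17381 ± 1655 CPM (SD, n = 5) in control and 15471 ± 1327 CPM (SD, n = 4) in cKO libraries, and these ranges overlapped. A ratio of 2 members within a library removes what they share, so each skeletal troponin gene was set against its cardiac paralog, and Tpm2 against Tpm1.

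The ratio of Tnni1 to Tnni3 fell. It was 38.5, 35.4, 39.5, 32.7 and 39.1% of CPM in control 1 to 5 and 25.3, 29.3, 27.1 and 28.1% in cKO 1 to 4. Every cKO library was below every control, with means of 37.1 ± 2.93% (SD, n = 5) and 27.5 ± 1.66% (SD, n = 4). The difference of the log2 ratios was −0.43 (two-sided exact permutation p = 0.00794, the smallest that groups of 5 and 4 allow, adjusted p over 6 ratios = 0.00952). Permuting only within the Rps3a3 library sets gave −0.42 (exact permutation p = 0.025, the smallest of 40 splits, adjusted p = 0.03). The share of the fetal isoform in the troponin I transcripts was thus lower in cKO ventricles.

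The ratio of Tnnt1 to Tnnt2 rose from 0.447, 0.416, 0.353, 0.412 and 0.388% in control 1 to 5 to 2.72, 3.13, 2.20 and 2.17% in cKO 1 to 4. These values were far apart, and the mean log2 ratio differed by 2.63, or 6.18-fold (exact permutation p = 0.00794, adjusted p = 0.00952). Tnnt1 remained a small part of troponin T transcripts in both groups. Tpm2 to Tpm1 was 0.929, 0.878, 0.924, 1.08 and 0.744% in control 1 to 5 and 1.30, 1.78, 1.58 and 1.32% in cKO 1 to 4. Here too the groups did not overlap, with a log2 difference of 0.71 (exact permutation p = 0.00794, adjusted p = 0.00952), although Tpm2 itself did overlap. In cKO 1 Tpm2 was within the control range at 60.7 CPM, while Tpm1 was at 4668 CPM, the lowest of all libraries. The separation of cKO 1 in this ratio therefore came from Tpm1.

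The fast skeletal genes Tnni2 and Tnnt3 were traces beside their cardiac paralogs. Tnni2 was 0.0876 ± 0.0274% (SD, n = 5) of Tnni3 in control and 0.193 ± 0.0232% (SD, n = 4) in cKO libraries, and Tnnt3 was 0.0144 ± 0.00154% of Tnnt2 against 0.0260 ± 0.00166% (same n). Log2 differences were 1.02 and 0.65, each with an exact permutation p of 0.00794 (adjusted p = 0.00952), and with a pseudocount of 0.5 CPM, which understates changes at these levels. Tnnc2 to Tnnc1 overlapped between groups (log2 difference −0.27, exact permutation p = 0.230).

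**Figure D3:**
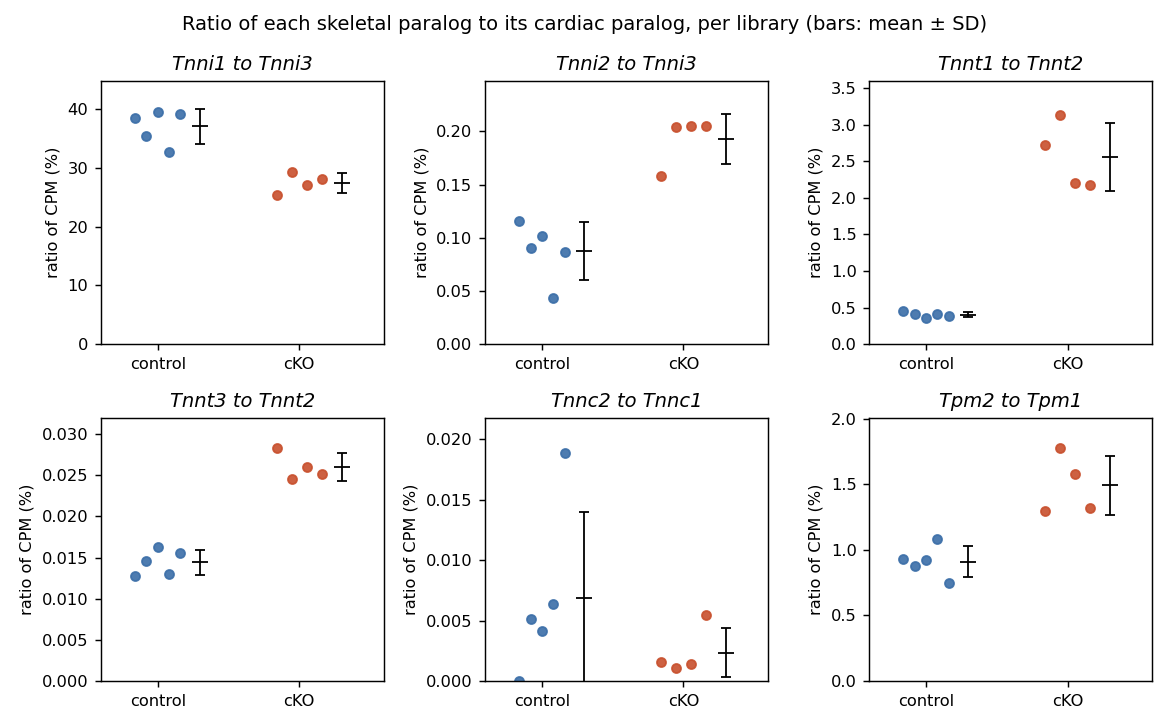
Ratio of each skeletal troponin gene to its cardiac paralog, and of Tpm2 to Tpm1, in percent of CPM on the vertical axis. Each library is 1 point and bars give mean and SD, the lower bar of Tnnc2 to Tnnc1 being cut at 0. Tnni1 to Tnni3 is the only separated ratio that is lower in cKO, with means of 37.1% and 27.5%.

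Further ratios were chosen after their values were seen and were not tested. Tnnt1 was 3.22 ± 0.363% of Tnni1 (SD, n = 5, range 2.76 to 3.68%) in control and 29.0 ± 4.12% (SD, n = 4, range 25.7 to 34.4%) in cKO libraries, so the CPM of the slow troponin T and slow troponin I genes came much closer together. Tnnc1 was 74.8 ± 3.90% of the summed Tnni1 and Tnni3 (SD, n = 5, range 71.3 to 81.2%) in control and 106 ± 11.5% (SD, n = 4, range 98.1 to 122.8%) in cKO libraries. Tnnt2 to Tnni3, the pair of cardiac isoforms, overlapped, at 2.94 ± 0.123 in control and 3.14 ± 0.222 in cKO libraries. Relative to troponin I, the troponin C gene was thus at a higher level in every cKO library than in any control.

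Levels of different genes were compared per kilobase of annotated exons. On this scale Tnni3 made up 82.4 ± 1.17% of the 3 troponin I genes in control (SD, n = 5) and 86.2 ± 0.730% in cKO libraries (SD, n = 4), Tnni1 17.5 ± 1.15% and 13.6 ± 0.709%, and Tnni2 0.0993 ± 0.0303% and 0.229 ± 0.0261%. The order Tnni3, Tnni1, Tnni2 held in every library. The shares depended on the length used. Per kilobase of coding length, Tnni1 made up 29.4 ± 1.66% in control and 23.6 ± 1.09% in cKO libraries, and Tnni3 70.5 ± 1.68% and 76.2 ± 1.11%. Tnnt2 has 7752 bases of annotated exons but a coding length of 906 bases, so its share was computed on coding length, where it was 99.5 ± 0.0382% in control and 97.1 ± 0.499% in cKO libraries and Tnnt1 was 0.462 ± 0.0398% and 2.86 ± 0.499%. On exon length the share of Tnnt1 was 1.40 ± 0.119% and 8.22 ± 1.35%. Tpm2 made up 1.99 ± 0.260% of the pair of tropomyosin genes in control and 3.22 ± 0.471% in cKO libraries per kilobase of exons, and 1.04 ± 0.137% and 1.69 ± 0.250% per kilobase of coding length, with Tpm1 the rest. Tnnc2 made up at most 0.0245% of the pair of troponin C genes in any library.

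The troponin I and T genes lie in pairs on the same strand. On GRCm38, Tnni1 (ENSMUSG00000026418, chromosome 1, 135779434 to 135810989) lies 25364 bases before Tnnt2 (ENSMUSG00000026414, 135836354 to 135852260), both on the plus strand, with log2 fold changes of −0.74 and −0.23. Tnni3 (ENSMUSG00000035458, chromosome 7, 4518305 to 4524229) and Tnnt1 (ENSMUSG00000064179, 4504570 to 4516382) are 1922 bases apart on the minus strand. Although next to each other, Tnni3 was at −0.31 and Tnnt1 at 2.45. Tnni2 (ENSMUSG00000031097, chromosome 7, 142441808 to 142444410) lies 54425 bases before Tnnt3 (ENSMUSG00000061723, 142498836 to 142516009) on the plus strand, at 0.80 and 0.62. Genes within 50 kb were counted as neighbours, and 6.72% of all tested genes were called. Of the 5 tested neighbours of Tnnt1 0 were called, and the closest one downstream, Ppp1r12c, was at −0.04 (edgeR adjusted p = 0.858). Of the 4 of Tnni1 2 were called, Csrp1 at 0.88 and Phlda3 at 0.70, named for their position. The only called neighbours of Tnni3 and Tnnt2 were Tnnt1 and Tnni1, and around the other 6 members 0 tested neighbours were called.

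**Figure D4:**
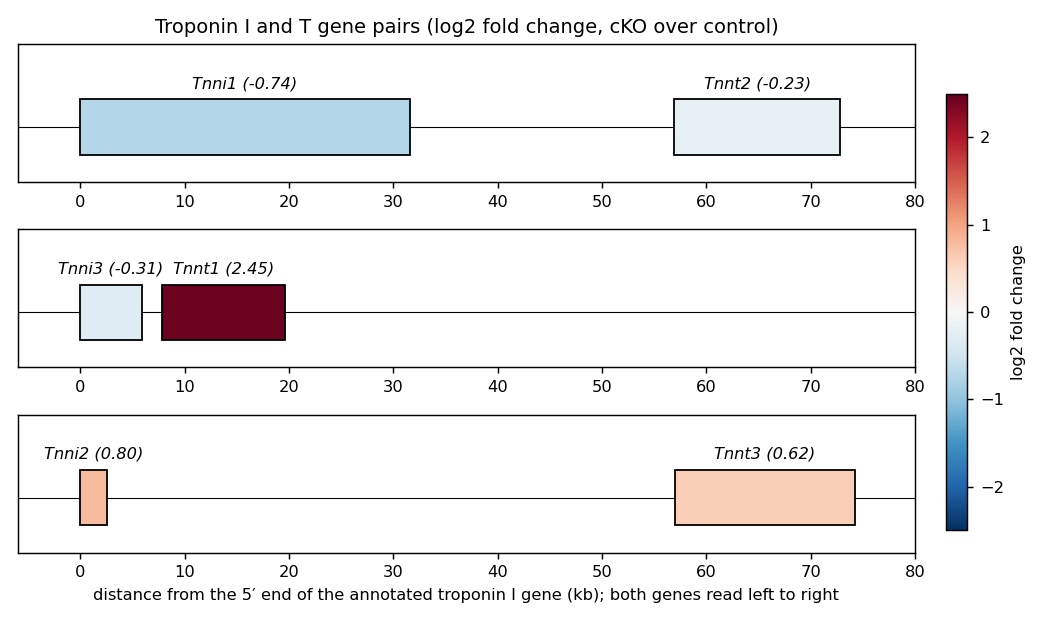
Annotated extent of the 3 troponin I and troponin T gene pairs, with distance in kb from the 5′ end of the troponin I gene on the horizontal axis and the colour of each box giving its log2 fold change, cKO over control. Tnni3 and Tnnt1, separated by 1922 bases, carry changes of −0.31 and 2.45.

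The remaining genes are not paired with another member: Tnnc1 (ENSMUSG00000091898) on chromosome 14, 31208312 to 31211729, Tnnc2 (ENSMUSG00000017300) on chromosome 2, 164777161 to 164779967, Tpm1 (ENSMUSG00000032366) on chromosome 9, 67022590 to 67049406, and Tpm2 (ENSMUSG00000028464) on chromosome 4, 43514711 to 43523765. Other annotated genes overlap 4 of the 10 members: Nisch runs over Tnnc1, Ube2c over Tnnc2 and Prr33 over Tnnt3 on the opposite strand, and Dnaaf3 overlaps Tnni3 on the same strand. None of the 4 was called. Prr33 was at a log2 fold change of 0.48 (edgeR adjusted p = 0.0916), beside 0.62 for Tnnt3, and Ube2c at 0.46 (edgeR adjusted p = 0.0577). Dnaaf3 was at 0.06 (edgeR adjusted p = 0.863) and Nisch at 0.08 (edgeR adjusted p = 0.561).

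Among 21 thin filament partners of troponin and tropomyosin (other tropomyosins, actins, tropomodulins, leiomodins, nebulins and filament chaperones), 3 were called higher and 2 lower, where 4.01% and 2.72% of all tested genes were, and the median log2 fold change was 0.04 against 0.01 over all genes. The tropomyosin genes Tpm3 and Tpm4, of wide expression, were at 0.10 and 0.08 (edgeR adjusted p = 0.240 and 0.636). Skeletal α-actin, Acta1, rose from 55.9 ± 17.7 to 254 ± 161 CPM, or by 2.18 on the log2 scale (SE 0.56, edgeR adjusted p = 0.0369), but its groups overlapped and the call was lost with the library set as a term (edgeR adjusted p = 0.0631). Cardiac actin, Actc1, was at −0.14 (edgeR adjusted p = 0.269). Klhl40, a stabiliser of thin filament proteins, rose by 1.28 (edgeR adjusted p = 0.00135), and Xirp2, an actin-binding repeat protein, by 0.83 with overlapping groups (edgeR adjusted p = 0.0442). Tmod4, a tropomodulin that caps the filament's pointed end in skeletal muscle, fell from 5.70 ± 1.08 to 1.06 ± 0.231 CPM (log2 fold change −2.42, edgeR adjusted p = 1.03e-05), and Nebl, the cardiac nebulette gene, fell by 0.63 on the log2 scale (edgeR adjusted p = 0.000612).

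Of 18 kinases, phosphatases and proteases that act on troponin or on sarcomeric proteins, Trim54, a muscle ubiquitin ligase, was called higher at 1.45 (edgeR adjusted p = 0.00059) and Prkd1, protein kinase D, lower at −0.98 (edgeR adjusted p = 0.000361), 2 of 18 where 6.72% of all tested genes were called. A further 5, named after their values were seen (Tnni3k, which phosphorylates cardiac troponin I, Prkaca, Prkce, Camk2d and Trim55), were lower at an adjusted p under 0.05 with changes under 1.5-fold, making 6 lower and 1 higher on that criterion, which 16.3% of all genes met. The summed level of all 18 genes was 2448 to 2549 CPM in control and 2214 to 2254 CPM in cKO libraries, without overlap. Abundant genes weigh most in this sum, and 16.7% of all single genes tested did not overlap either. The median log2 fold change of the list was −0.09.

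Markers of other cells were read beside these results. Over all tested genes, 6.72% were called, 16.3% had an adjusted p under 0.05, and 16.7% did not overlap between groups in CPM. Skeletal muscle markers summed to 53.9 to 73.5 CPM in control and 154 to 222 CPM in cKO libraries, which did not overlap, beside the rise of Tnnt1 and Tpm2 and the low values of Tnni2 and Tnnt3. Most of the sum was Mybpc2, from 29.4 ± 8.81 to 135 ± 17.8 CPM (log2 fold change 2.19, edgeR adjusted p = 0.00012), and Casq1, from 26.1 ± 6.13 to 51.0 ± 12.4 CPM (0.97, edgeR adjusted p = 0.00962), the third most abundant being Neb at 2.01 and 2.63 CPM. Of the 20 markers 7 passed the filter, 3 (Myod1, Myf6 and Pax7) were at 0 in all libraries, and 7 had at most 10 counts in each library. The fast myosins Myh1 and Myh4 had at most 17 and 20 counts in any library. Fibroblast markers summed to 2797 to 3539 CPM and 3638 to 4324 CPM without overlap, with 0 of 6 called. The most abundant of them were Col1a2 at a log2 fold change of 0.40, Col1a1 at 0.52 and Dcn at −0.04 (edgeR adjusted p = 0.00574, 0.0346 and 0.807). Besides the collagen genes, Tcf21 at 0.48, named after its values were seen, was higher at an adjusted p under 0.05 (edgeR adjusted p = 0.0182). The part of these cell types in the troponin and tropomyosin values was not tested.

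Ventricular cardiomyocyte markers, which check the tissue, summed to 46464 to 56131 CPM in control and 43004 to 49985 CPM in cKO libraries, overlapping. With 6.72% of all tested genes called, 0 of these 8 markers were. The most abundant by mean CPM over the 9 libraries were Myh6 at −0.12, Myl2 at −0.43 and Mb at 0.13 (edgeR adjusted p = 0.478, 0.00124 and 0.418). Myl2 and Pln, at −0.45 (edgeR adjusted p = 0.00875) and named after its values were seen, were lower at an adjusted p under 0.05. Sums of smooth muscle and mural markers overlapped (1496 to 1681 and 1521 to 1754 CPM), led by Rgs5 at 0.11, Smtn at −0.56 and Pdgfrb at 0.15 (edgeR adjusted p = 0.431, 0.0414 and 0.157). Of these 9 markers 1 was called higher, Cnn1 at 2.78, named after its values were seen, and Smtn was the 1 that was lower at an adjusted p under 0.05. With the library set as a term Smtn was called lower at −0.71 (edgeR adjusted p = 0.000477). Endothelial sums overlapped (1208 to 1323 and 1191 to 1286 CPM), with 0 of 4 called and Cdh5 at −0.07, Kdr at −0.03 and Pecam1 at −0.04 (edgeR adjusted p = 0.509, 0.805 and 0.611). Atrial sums also overlapped (95.3 to 174 and 153 to 221 CPM), and of the 5 tested genes Myl7, an atrial myosin light chain, was called higher at 1.20 (edgeR adjusted p = 0.00493), while Myl4 and Nr2f2 were at 0.16 and −0.14 (edgeR adjusted p = 0.710 and 0.289). Stard10, named after its values were seen, was called lower at −1.44 (edgeR adjusted p = 0.00176).

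Across the 9 libraries, the genes whose log2 CPM followed Tnni1 most closely, of 11010 compared, were Nrbp1, Pxn and Klc1, with Pearson's r of 0.989, 0.989 and 0.984. Those closest to Tnni3 were Efna1 (0.987), Dennd6b (0.985) and Myh7b (0.981). The libraries share group, depth and library set, so these values are a description.

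**Figure D5:**
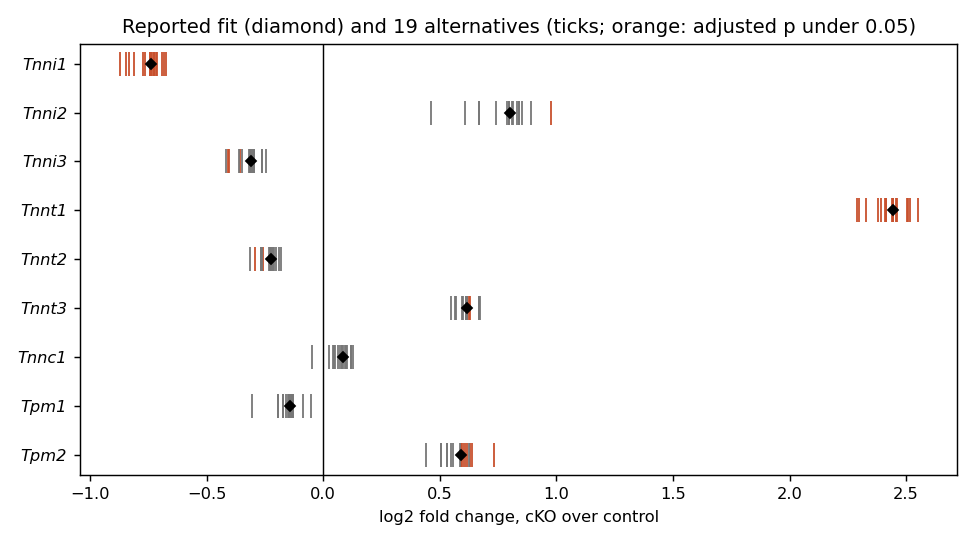
Log2 fold change of each tested gene on the horizontal axis in the reported fit (diamonds) and in 19 alternative fits (ticks, coloured where the adjusted p was under 0.05). Tnnt1 stays between 2.29 and 2.55 and Tnni1 between −0.87 and −0.68 with every tick coloured, while Tpm2 passes in only 10 of the 19.

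In the 19 alternative fits the calls of Tnnt1 and Tnni1 were kept, as the plot of these fits shows. Between 2 and 4 members were called in each.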

How the data were processed

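Ventricular RNA of P7 mice was profiled in 9 libraries, 5 control and 4 cKO, each grouped by its own label. The authors deposited raw read counts per gene in 1 table. Their libraries were stranded mRNA libraries read from a single end and mapped to mm10. The submitters' processing notes list STAR 2.4.2a and HTSeq 0.6.1. The annotation release and strand setting are not given in the sources used here. Reads of overlapping genes could therefore be assigned to either gene, and splice forms of 1 gene were counted together. The table held 0 other sample columns.

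Of 38293 identifiers 36429 had a GENCODE M21 symbol, carrying 99.8% of counts. The test of counts was edgeR 4.0.16 quasi-likelihood (glmQLFTest) under R 4.3.3 (filterByExpr minimum count 10, TMM, robust fit, genotype only, Benjamini-Hochberg over 15318 genes). The script was tested on simulated data. DESeq2 was the authors' test and is an alternative here (version 1.42.0), with their thresholds of 0.05 and 1.5-fold. CPM are counts per 1e6 of the TMM-scaled total. Standard errors came from the fold change and F statistic. Totals of 31011055 to 40073801 counts put the floor of 3 counts near 0.1 CPM. Floors cover counting error only. Paralog ratios used log2(CPM + 0.5) and two-sided exact permutation tests with adjustment over 6 ratios. Libraries were put into sets at 10 CPM of Rps3a3 and 100 CPM of Xist.

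The genes named are the 10 members, Arid1a, the called genes of the thin filament and modifier lists (at most 5 each), the 3 most abundant genes of each marker list (by mean CPM over the 9 libraries) and the 3 genes closest to Tnni1 and to Tnni3 with a mean of at least 5 CPM. Outside this rule are the paralogs Tpm3, Tpm4 and Actc1, skeletal muscle markers at or near 0, genes that neighbour or overlap a member, and genes marked in the text, all named after their values were seen. Members and lists were chosen with earlier results of these data known. Alternatives were other scalings and filters, DESeq2, the replicate number as a block, the library and Xist sets as terms, the Rps3a3-low libraries alone, other thresholds and lengths, and leaving out each library.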

Additional observations from a re-analysis of the deposited data

Results flagged for a closer look

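Tnnc2 in the cKO group was the 1 flagged value among 32 groups of libraries examined for a library far from the others. The gap of cKO 4 (5 counts against 1 in each of the other 3 libraries) was 0.947 of the group's range, above the critical value of 0.829 for 4 samples. Chance flags about 1 in 20 groups, and these counts lie near the floor of 3.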

How the results depend on the processing

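Tnnt1 and Tnni1 kept their calls in all 19 alternative fits, and the number of members called stayed between 2 and 4. The log2 difference of Tnni1 to Tnni3 ranged from −0.47 to −0.39 without single libraries. In the Rps3a3-low libraries only (2 control, 3 cKO) it was −0.44, with an exact permutation p of 0.1, the smallest that this size allows. Tnnc1 turned to −0.046 there (edgeR adjusted p = 0.882), and 620 genes were called against 1030, with fewer libraries tested. Replicate numbers are shared between groups, but same-numbered libraries deviated together weakly (correlations 0.0227, 0.0361, 0.0107 and 0.232), so they were not taken as pairs. With the replicate block, 888 genes were called, the ratio of Tnni1 to Tnni3 was −0.41 (exact permutation p = 0.125, the smallest of 4 pairs), Tpm2 was at 0.51 (edgeR adjusted p = 0.0794), and Tnni3 and Tnnt2 passed at −0.36 and −0.26 (edgeR adjusted p = 0.0173 and 0.0428). DESeq2 added Tnni2 (adjusted p = 0.0325) and passed Tnni3 and Tnnt2 under 1.5-fold (adjusted p = 0.0339 and 0.0489). Tnni2 also passed without control 1 (0.98, edgeR adjusted p = 0.038), and Tnni3 without cKO 2 (−0.40, edgeR adjusted p = 0.0216). Tnnt3 passed with upper-quartile scaling and with a filter at 1 CPM (edgeR adjusted p = 0.0494 and 0.0382). Tpm2 did not pass without a filter (edgeR adjusted p = 0.0667). Shares per kilobase moved with the length used: Tnni1 made up 13.5% of control troponin I per longest transcript and 29.4% per coding length. The counts of Tnni2, Tnnt3 and Tnnc2 limit what can be said of the fast skeletal genes.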

Other observations

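Xist marked control 2 and 3 and cKO 3 and 4 as a set, and whether the cKO change differed between the sets was examined after the data had been seen. In the Xist-low and Xist-high libraries the mean log2 difference was 2.70 and 2.10 for Tnnt1, −0.57 and −0.94 for Tnni1, −0.14 and −0.50 for Tnni3, and −0.09 and −0.39 for Tnnt2. The interaction term for Tnnt1 was 0.61 (SE 0.24, unadjusted edgeR p of 0.0291). For Tnni1 it was 0.37 (SE 0.26), for Tnni3 0.36 (SE 0.21) and for Tnnt2 0.30 (SE 0.16). The 9 tested members each had an edgeR adjusted p of 0.999 in this test, in which 1 gene of 15318 passed, so no difference between the sets was shown for these genes.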
